A study of Mus musculus with 6 samples.

Results

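CTCF, MAZ and 4 further zinc finger proteins discussed beside PATZ1 as insulation factors (VEZF1, ZFP263, ZFP341 and ZFP467) were followed at the RNA level in mouse embryonic stem cells (ESCs) with and without an intact Patz1 gene. Their genes were found by symbol, so the set holds 6 of the 23420 gene symbols counted. RNA-seq was available from 3 WT and 3 Patz1 knockout (KO) libraries of E14 ESCs, a male mouse line. Cells of both genotypes grew in medium with LIF and 2i, that is, the MEK inhibitor PD0325901 and the GSK3 inhibitor CHIR99021. Ribosomal RNA was removed from the total RNA, and the libraries were stranded. The KO was made with Cas9 and a guide to Patz1 in single-cell clones, and the labels do not say whether the 3 KO libraries came from 1 clone or from several. The study calls the replicates biological, but the labels do not say whether libraries of a genotype were grown separately, and p-values measure the spread between these libraries, which may then be technical in part.

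CTCF is the main insulator protein of mammals. It binds DNA through a row of C2H2 zinc fingers and stops cohesin, the ring complex that extrudes chromatin loops, at the borders of topological domains. MAZ, VEZF1, the mouse counterpart of human ZNF263 and PATZ1 itself recognise G-rich DNA with the same kind of finger, and MAZ and VEZF1 have been described as insulators. The comparison asks whether the RNA of these factors changed when Patz1 was disrupted, and how far their levels lie apart within 1 cell type.

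The guide used against Patz1 is shown because it sets what the loss of function rests on. It matches 20 bases of the plus strand at chr11:3290600-3290619 (GRCm38, the build that is also called mm10), in exon 1 of Patz1, next to a CGG PAM, and the capitals mark the start codon.
Patz1 guide: aaggggcagcgaccATGgag
Cas9 would cut directly after the start codon, whose first base is at 3290614. The site lies in 4 of the 12 annotated Patz1 transcripts, and 6 of the 12 are protein coding.

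To see whether the factors' own promoters carry the G-rich core that MAZ is known to bind, GGGAGGG was searched on both strands (so also as CCCTCCC), with overlapping matches counted, in the windows from 250 bases before to 50 bases after each start. RefSeq promoter sequences on GRCm38.p6 were matched for all 6 genes. At least 1 match was present in 21.9% of 32817 promoter windows of the same length, and at least 4 in 0.625%. Maz and Zfp467 each had a window with 4 matches. Ctcf had 2 matches (5.67% of all windows had at least 2), Zfp263 had 1, and the windows of Vezf1 and Zfp341 had none. A match is a run of letters and not a measured binding site. The windows with 4 matches are printed with the matches in capitals, Maz at chr7:127026956-127027255 and Zfp467 at chr6:48445041-48445340, both on the minus strand and 5′ to 3′.
Maz promoter: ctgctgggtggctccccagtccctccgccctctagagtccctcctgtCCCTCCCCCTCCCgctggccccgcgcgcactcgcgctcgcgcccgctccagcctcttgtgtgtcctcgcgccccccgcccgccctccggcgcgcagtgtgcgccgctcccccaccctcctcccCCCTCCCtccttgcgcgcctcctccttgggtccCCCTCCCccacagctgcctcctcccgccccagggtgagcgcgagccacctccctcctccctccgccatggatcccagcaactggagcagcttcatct
Zfp467 promoter: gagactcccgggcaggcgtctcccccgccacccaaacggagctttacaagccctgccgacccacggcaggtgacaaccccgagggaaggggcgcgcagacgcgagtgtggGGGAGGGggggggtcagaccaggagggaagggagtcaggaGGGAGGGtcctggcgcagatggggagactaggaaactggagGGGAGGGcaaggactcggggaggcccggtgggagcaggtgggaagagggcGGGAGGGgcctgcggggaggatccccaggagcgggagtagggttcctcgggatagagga
The matches in the Maz window all read as CCCTCCC and those in the Zfp467 window all as GGGAGGG on the strand of the gene. A second annotated start of Maz had 2 matches in its window. GC content of the windows was 75.3% for Ctcf, 74.3% for the Maz window shown, 84.0% for Vezf1, 60.0% for Zfp263, 69.0% for Zfp341 and 69.7% for Zfp467, against a median of 52.7% over all windows.

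The deposited counts summed to at least 37573923 and at most 47721070 in the 4 deeper libraries, but only to 11040756 (WT) and 11420268 (KO) in those numbered 3. Replicate 3 also had the highest share of counts on the ribosomal precursor Rn45s, 14.4% in WT and 12.5% in KO against at most 3.03% elsewhere. All 8 ESC markers examined were well detected, with no library under 2497 normalized counts (counts divided by a library size factor), and their summed level was 118639 to 123922 in WT and 129421 to 134439 in KO, with none of the 8 called. Of the fibroblast feeder markers, Col3a1 and Postn had at most 3 counts in every library, and the summed level of the 5 markers was 84.07 to 110.2 in WT and 133.8 to 169.1 in KO, mostly Thy1, which was called higher (0.83 on the log2 scale, adjusted p = 0.0147, DESeq2). The summed levels of the 6 neural markers (3768 to 4682 and 3977 to 5035, mostly Tubb3, with Olig2 at no more than 3 counts in any library), of the 5 primitive endoderm markers (106.6 to 145.1 and 89.73 to 113.6) and of the 4 mesoderm markers (816.3 to 1129 and 655.4 to 985.4) overlapped between WT and KO. Those of the 4 trophoblast markers were 1051 to 1114 in WT and 905.8 to 1044 in KO, and 3 of the 4 were called, in opposite directions: Cdx2 (-0.72) and Krt8 (-0.66) lower and Tfap2c (0.66) higher on the log2 scale. Over all genes, 7.49% were called with DESeq2. The part of these markers in the factors' values was not tested. In bulk RNA, fewer cells of a type and less RNA per cell cannot be told apart.

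The targeted gene checks the labels. Patz1 (ENSMUSG00000020453, chr11:3288874-3309083, plus strand, protein coding) gave 1838, 1983 and 1843 normalized counts in the WT libraries and 853.3, 862.4 and 861.5 in those of the KO. The genotypes did not overlap, and the KO mean was 45.5% of WT. The log2 fold change, KO over WT, was -1.14 (SE 0.10, adjusted p = 1.58e-26, Wald test of DESeq2 over all genes). Patz1 RNA was thus lower but present in every KO library. Counts summed over the whole gene do not show whether the reads still contain the intact start codon. By western blot the study reports that PATZ1 protein was lost in its KO lines.

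None of the 6 insulation factors passed an adjusted p of 0.05 with DESeq2, against 1146 of 15309 genes tested, or 7.49% (2.7% called higher and 4.78% called lower in KO). With genotype as the only term and chromosome 11 not centred, none had an unadjusted p under 0.05 with DESeq2, edgeR or limma-voom. With DESeq2, 13.9% of all genes had one, and the shares with edgeR and limma-voom were not computed. With the replicate number as a block, again none passed, against 14.6% of the genes tested. In all 6, the libraries of the genotypes overlapped, whereas they did not overlap for 25.6% of all genes tested. Fold changes ranged from -0.32 for Zfp467 to 0.09 for Zfp341 on the log2 scale, with a median of -0.01 against 0.01 over all genes. A missed threshold does not show that a gene had equal levels, so the 95% intervals of the ratio between KO and WT are given for each factor.

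**Figure D1:**
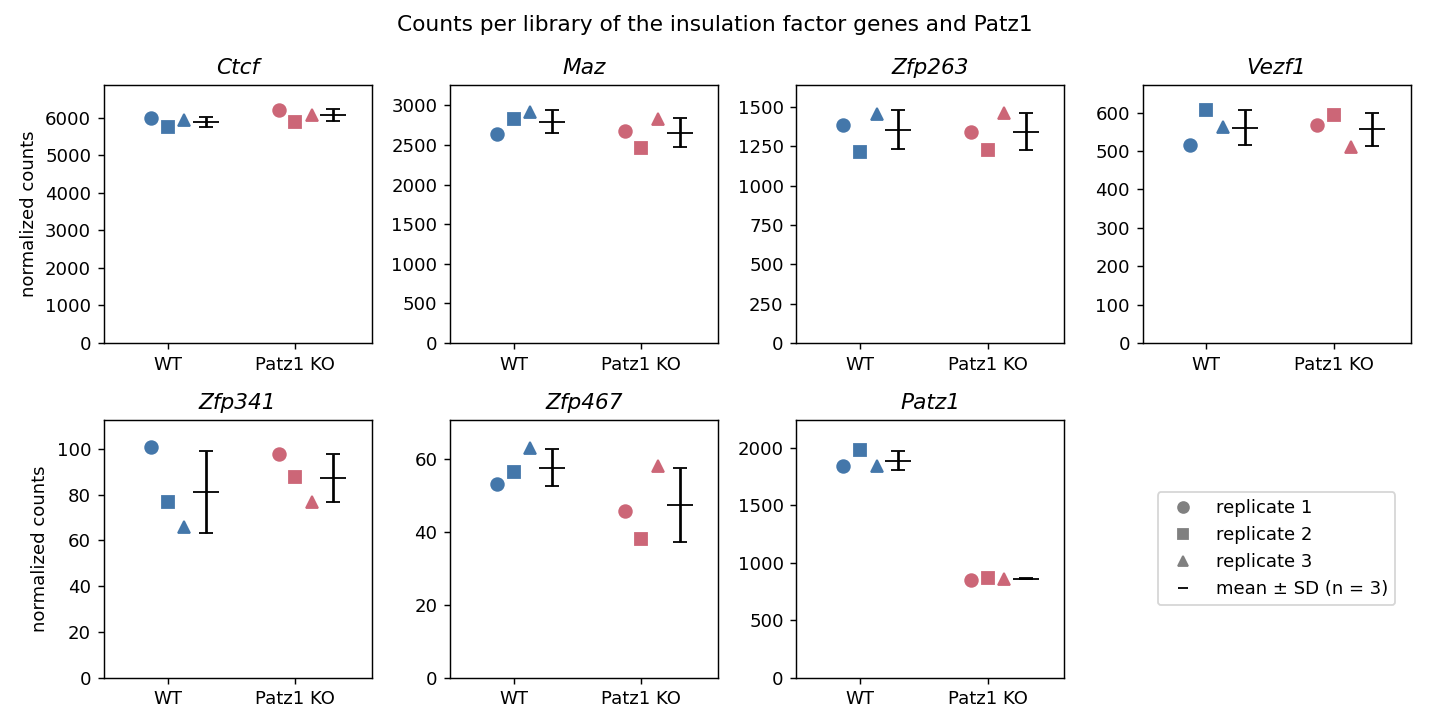
Normalized counts (vertical axes, each from 0) of the 6 insulation factor genes and of Patz1 in every WT and KO library, with symbols for the replicate number and the mean ± SD of 3 libraries beside them. The WT and KO points overlap for each of the 6 factors, whereas the Patz1 points of KO (853.3 to 862.4) lie below those of WT (1838 to 1983).

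Ctcf, the anchor of the set (ENSMUSG00000005698, chr8:105636568-105682922, plus strand), was the best determined. Its normalized counts were 5989, 5746 and 5942 in WT and 6216, 5892 and 6078 in KO. The KO library was the higher one at each of the 3 replicate numbers, by 0.05, 0.04 and 0.03 on the log2 scale, a shift smaller than the range within either genotype. The fold change was 0.04 (SE 0.08, adjusted p = 0.898, DESeq2), and the interval ran from 0.917 to 1.15 times the WT level. The coefficient of variation over the 3 libraries was 2.19% in WT and 2.69% in KO, the lowest of the 6 genes in each genotype.

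Maz encodes the Myc-associated zinc finger protein (ENSMUSG00000030678, chr7:127022130-127027037, minus strand). The WT libraries gave 2639, 2822 and 2922 normalized counts, and the KO libraries 2677, 2459 and 2822. KO replicate 2 was the lowest library and WT replicate 3 the highest, and the other 4 fell between 2639 and 2822. KO was lower in 2 of 3 replicate numbers, with differences of 0.02, -0.20 and -0.05 on the log2 scale. The fold change was -0.08 (SE 0.10, adjusted p = 0.821, DESeq2). The interval ran from 0.828 to 1.09 times WT. The study reports by western blot that MAZ protein was consistently lower in Patz1 KO clones and was restored by tagged PATZ1. These RNA values do not measure protein.

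Vezf1, named for its discovery in vascular endothelium (ENSMUSG00000018377, chr11:88068279-88084729, plus strand), reached 515.3, 605.9 and 561.3 normalized counts in the WT libraries and 566.6, 592.5 and 510.0 in the KO libraries. Means were 560.8 ± 45.3 and 556.4 ± 42.2 (SD, n = 3). The lowest library of all was KO replicate 3 and the highest WT replicate 2. The fold change was 0.00 (SE 0.13, adjusted p = 1.00, DESeq2), with an interval of 0.837 to 1.20 times WT.

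Zfp263, the mouse counterpart of ZNF263, encodes a protein with SCAN and KRAB domains before its fingers (ENSMUSG00000022529, chr16:3744093-3750790, plus strand). Its normalized counts were 1389, 1218 and 1459 in WT and 1343, 1225 and 1464 in KO. Same-numbered libraries lay close together, with replicate 2 lowest and replicate 3 highest in both genotypes. The differences within a replicate number were -0.05, 0.01 and 0.00, and the fold change was -0.01 (SE 0.12, interval 0.844 to 1.16 times WT, adjusted p = 0.980, DESeq2).

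The remaining 2 factors were weakly expressed. Zfp341 is the counterpart of human ZNF341, a transcriptional activator of STAT3, and lies at chr2:154613297-154646821 (ENSMUSG00000059842, plus strand). Normalized counts of 100.7, 76.97 and 65.71 in WT stood beside 97.63, 87.78 and 76.64 in KO. Replicate 3 rested on 24 raw counts in WT and 29 in KO, and it was the lowest library of each genotype. The fold change was 0.09 (SE 0.26, adjusted p = 0.932, DESeq2), and the interval of 0.748 to 1.51 times WT was among the widest.

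Zfp467, which has been described in adipocyte and osteoblast differentiation (ENSMUSG00000068551, chr6:48427697-48445825, minus strand), reached 53.19, 56.49 and 62.98 normalized counts in the WT libraries and 45.71, 37.96 and 58.14 in the KO libraries. Means were 57.55 ± 4.98 in WT and 47.27 ± 10.2 in KO (SD, n = 3). It was the only factor of the 6 with the KO library lower at each of the 3 replicate numbers, by 0.21, 0.56 and 0.11 on the log2 scale, although KO replicate 3 exceeded WT replicates 1 and 2. The fold change was -0.32 (SE 0.31, interval 0.527 to 1.22 times WT, adjusted p = 0.719, DESeq2). It rested on 22 to 93 raw counts per library, and without KO replicate 2 the fold change was -0.17.

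Raw counts do not compare genes of different length, so levels were also divided by the length of the union of annotated exons. In WT, Ctcf had 1212 ± 26.5 normalized counts per kb (SD, n = 3) and Maz 939 ± 48.1. Zfp263 followed with 300 ± 27.4 and Vezf1 with 122 ± 9.85. Zfp341 had 24.6 ± 5.41 and Zfp467 13.5 ± 1.17. Among 17319 protein-coding genes with a count, Ctcf stood at percentile 94.0 and Maz at 92.3, whereas Zfp341 and Zfp467 stood at 42.2 and 36.4, below the middle of the list.

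This order held in each of the 6 libraries, and no pair of neighbours in it overlapped between any libraries. The closest neighbours by ratio were Ctcf and Maz, whose ratio per kb was 1.29 ± 0.0829 in WT and 1.40 ± 0.0761 in KO and ran from 1.25 to 1.47 over the 6 libraries. Zfp263 exceeded Vezf1 by 2.48 ± 0.377 times in WT and 2.48 ± 0.413 times in KO. The widest step was from Vezf1 to Zfp341, 5.15 ± 1.30 times in WT and 4.59 ± 0.374 times in KO. Zfp341 exceeded Zfp467 by 1.85 ± 0.553 times in WT and 2.48 ± 0.684 times in KO, a ratio that reached down to 1.35 in 1 library. From end to end, Ctcf exceeded Zfp467 by 90.1 ± 8.04 times in WT and 115 ± 22.4 times in KO, and by 82.6 to 136 times over the 6 libraries.

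Ctcf made up 46.4% ± 1.15 of the summed level per kb of the 6 genes in WT and 48.1% ± 1.13 in KO (SD, n = 3). Maz made up 36.0% ± 1.39 and 34.3% ± 1.08. The other 4 factors shared the rest, with 11.5% for Zfp263, 4.67% for Vezf1, 0.944% for Zfp341 and 0.518% for Zfp467 in WT. The shares of Ctcf and of Maz overlapped between the genotypes, although at each of the 3 replicate numbers the Ctcf share was higher and the Maz share lower in KO.

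The factor that did change its place was Patz1. Its WT level per kb, 320 ± 13.9, overlapped that of Zfp263, with a ratio of 1.08 ± 0.15. With the longest coding transcript as the length, the ratio was 1.23 ± 0.171 and the WT libraries did not overlap. In KO it was 146 ± 0.848 per kb, which was 0.492 ± 0.0445 times Zfp263 and still above Vezf1 in each library. Maz exceeded Patz1 by 2.94 times in WT and 6.13 times in KO.

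**Figure D2:**
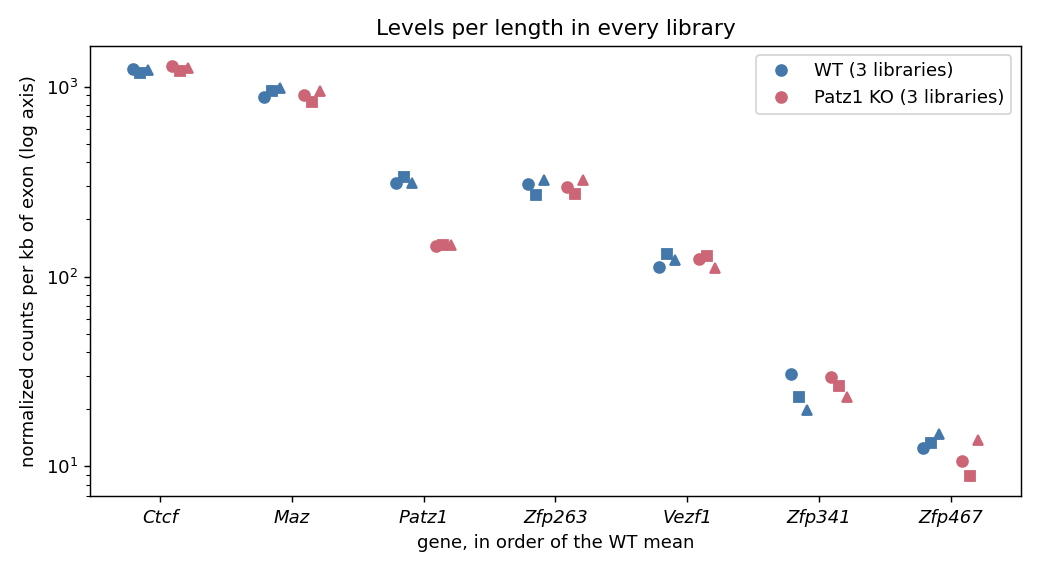
Normalized counts per kb of exon (log axis) of the 6 insulation factors and Patz1 in each library, ordered by WT mean, with WT and KO side by side and symbols for the replicate number as in the plot of counts by library. Ctcf and Maz lie between 826 and 1279, Zfp341 and Zfp467 at 30.5 or below, and Patz1 is the gene whose KO points leave the WT points.

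Because most genes of chromosome 11 were lower in KO, each factor was set beside its own chromosome, using genes with a mean of at least 50 normalized counts. On chromosome 11 the median log2 fold change was -0.26 over 961 genes and 90.7% of them were lower in KO, against a median of 0.03 and 42.4% lower over 10071 genes of the other autosomes. Vezf1 is the member on that chromosome, and its fold change of 0.00 exceeded that of 90.8% of the other 960 genes. The medians of the chromosomes of the other 5 factors lay between 0.01 and 0.04.

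The immediate surroundings of Vezf1 were uneven. Of 23 other genes whose start (5′ end) lay within 1 Mb of its own, 21 were lower in KO, 11 were called, and each of the 11 was lower. Over the whole of chromosome 11, 249 of the 960 genes other than Vezf1 were called, or 25.9%. Srsf1, a splicing factor gene that starts 20.9 kb before Vezf1, averaged 22523 normalized counts in WT against 23063 in KO (fold change 0.03, adjusted p = 0.927, DESeq2). Dynll2, a dynein light chain gene starting 80.7 kb before Vezf1, fell from 2105 to 1103 (-0.94, SE 0.12, adjusted p = 4.39e-12, DESeq2). Mks1, a cilium gene 215.1 kb before it, fell from 546 to 265 (-1.06, SE 0.16, adjusted p = 1.98e-09, DESeq2). On the other side Cuedc1, Mrps23 and Msi2, the next 3 genes with a mean of at least 50, had fold changes of -0.23, -0.10 and -0.16 and did not pass. Vezf1 and its nearest neighbours on either side were thus not called, and the genes that were called lay further out on both sides.

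Relative to chromosome 11, Vezf1 stood higher in KO than in WT. The chromosome 11 median of log2 deviations from each gene's mean was 0.22, 0.11 and 0.07 in WT and -0.12, -0.13 and -0.15 in KO. The deviation of Vezf1 minus that median was -0.34, 0.01 and -0.06 in WT and 0.14, 0.22 and 0.02 in KO, so the highest WT value (0.01) and the lowest KO value (0.02) almost touched. With size factors for chromosome 11 taken from its own genes, the Vezf1 fold change became 0.27 (SE 0.14, interval 0.00 to 0.54, unadjusted p = 0.0461, adjusted p = 0.328, DESeq2), and with the replicate number as a block in addition it was 0.28 (SE 0.12, interval 0.05 to 0.52, unadjusted p = 0.017, adjusted p = 0.114, DESeq2). Neither passed, where 5.71% and 11.4% of all genes tested did. Patz1 lies on the same chromosome, with -1.14 against the median of -0.26. With chromosome 11 centred it had -0.86 (adjusted p = 1.45e-13, DESeq2) and was still called. For Vezf1, the part of the chromosome-wide shift in its value was not tested beyond these fits.

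**Figure D3:**
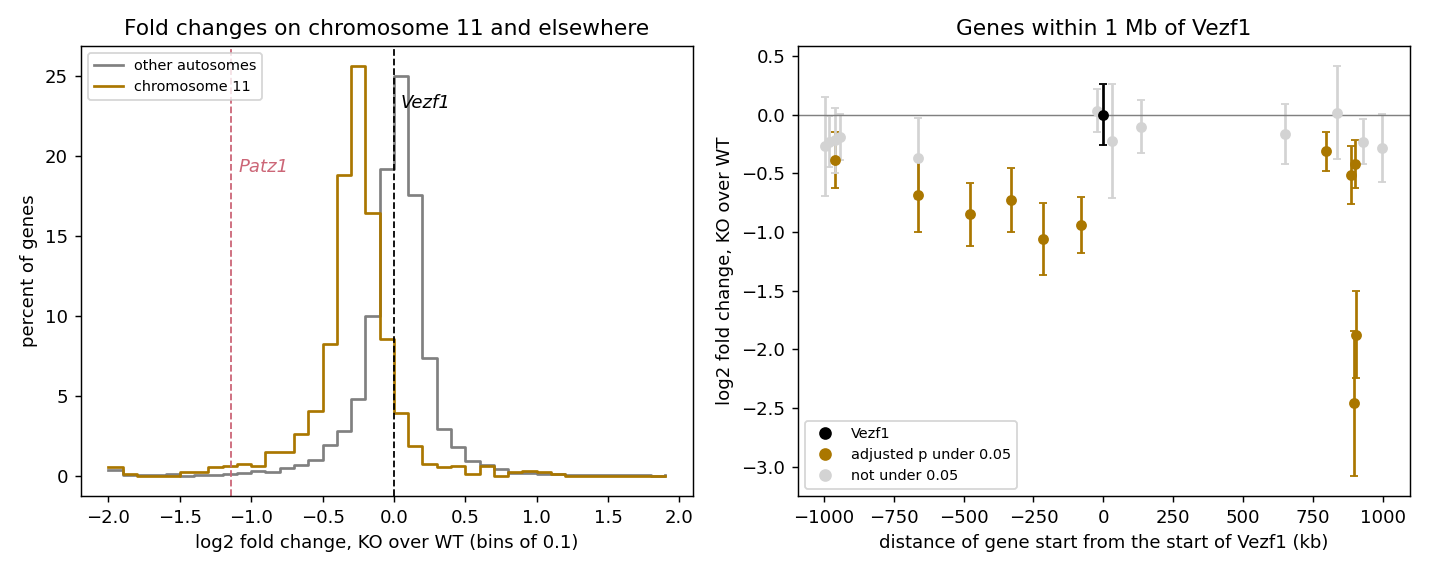
Left, the percent of genes (mean of at least 50 normalized counts) in bins of 0.1 of the log2 fold change, KO over WT, for chromosome 11 and the other autosomes between -2 and 2, with dashed lines at Vezf1 and Patz1. Right, fold changes with 95% intervals of genes starting within 1 Mb of Vezf1 by distance in kb: Vezf1 sits at 0.00, beside Srsf1, while 11 of its 23 neighbours passed the threshold and were lower.

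Around Maz, 71 genes started within 1 Mb, with a median of -0.08, the same as the Maz value, and 7 were called, 5 of them lower, where 5.75% of the chromosome 7 genes were called. Distances are between gene starts, the 5′ ends. Kif22, a kinesin gene starting 15.4 kb from Maz, had a fold change of 0.06. On the other side Pagr1a, starting 9.7 kb away, averaged 974.8 normalized counts in WT against 851.6 in KO (-0.19, adjusted p = 0.419, DESeq2). Mvp, which encodes the major vault protein and starts 12.4 kb from Maz, fell from 748.1 to 560 (-0.44, SE 0.15, adjusted p = 0.0393, DESeq2). Within the same distance, 4 of 25 genes were called around Zfp467 (8.99% over chromosome 6), 2 of 18 around Zfp263 (7.04% over chromosome 16), 1 of 41 around Ctcf (5.96% over chromosome 8) and none of 22 around Zfp341 (5.44% over chromosome 2), with DESeq2 in each case.

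Across the 6 libraries, the pair of factors that varied together most was Maz and Zfp467. Pearson's r of log2(normalized count + 1) was 0.94 (exact permutation p = 0.00556, adjusted over 15 pairs 0.0834) and Spearman's rho 0.89 (exact permutation p = 0.0333, adjusted 0.25). Without the 2 libraries farthest from the median of Maz, KO replicate 2 and WT replicate 3, r was 0.70. Neither coefficient passed 0.05 after adjustment, and r was at least as high between Maz and 0.234% of all genes compared. Vezf1 and Zfp263 varied in opposite directions, with r = -0.81 (exact permutation p = 0.0597, adjusted 0.448), rho = -0.94 (exact permutation p = 0.0167, adjusted 0.25) and r = -0.93 without WT replicate 1 and KO replicate 3, the 2 farthest libraries. These points share libraries and depth. The permutations treat the 6 libraries as exchangeable, without regard to genotype or to the low depth shared by the replicate 3 libraries. Their p-values are therefore descriptive only.

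The genes most alike to each factor over the same 6 libraries were sought among 11523 genes with a mean of at least 50. For Ctcf they were Xcr1 (r = 0.9823) and 8430410A17Rik (0.9801), and the most opposite was Mtch1 (-0.9725). For Maz they were Sars2 (0.9857) and Fam63b (0.9842), with Atp5s at -0.9983. Vezf1 was closest to Adam10 (0.9852) and Lrrc14 (0.979) and farthest from Ncbp2 (-0.9833). No factor was the nearest gene of another. Zfp263 was closest to Slc18b1 (0.9953) and Baz1b (0.993) and farthest from Tbc1d17 (-0.9923). Zfp341 was closest to Nop58 (0.9967) and Mcm3 (0.9934), with 9330159M07Rik at -0.994, and Zfp467 to Asb6 (0.9949) and Tanc1 (0.986), with Cdpf1 at -0.9934. With 6 libraries and so many genes, values of this size describe the likeness only.

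Related factors were examined as 3 lists. Of 15 other zinc finger genes whose proteins bind G-rich or GC-box DNA, DESeq2 gave an adjusted p to 14 and edgeR and limma-voom tested 13, and none of those passed. An unadjusted p under 0.05 was found for 2 of 15 with DESeq2, near the 13.9% of all genes. It was found for 1 of 13 with edgeR and 2 of 13 with limma-voom, where the share of all genes was not computed. These genes were Klf12 and Sp2 (Klf12 alone in edgeR). Klf12 averaged 145.8 ± 13.7 normalized counts in WT against 205.7 ± 50.8 in KO (0.48, SE 0.21, adjusted p = 0.176, DESeq2). Its genotypes narrowly did not overlap, with 162.5 in KO replicate 2 and 161.5 in WT replicate 3. It was the only 1 of the 14 without overlap, against 25.6% of all genes tested. Sp2, which lies on chromosome 11, had 415.3 ± 67.3 and 328.7 ± 60.1 (-0.34, SE 0.17, adjusted p = 0.277, DESeq2), beside the chromosome median of -0.26. The GC-box activators Sp1 and Sp3 had fold changes of -0.04 and 0.08, and Zfp281 and Zfp148, which bind runs of G as MAZ does, 0.10 and 0.05. The list median was 0.01.

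Of 10 other proteins with an architectural role (YY1, ZFP143, CTCFL, ADNP and the 6 subunits of TFIIIC), none passed with DESeq2, edgeR or limma-voom and none had an unadjusted p under 0.05 with any of them. With the replicate block 1 of 10 did, against 18.8% of all genes in that fit: Gtf3c3, which encodes a TFIIIC subunit. Its libraries did not overlap between genotypes (1662, 1607 and 1462 normalized counts in WT, 1892, 1759 and 1675 in KO). It was the only 1 of the 10 without overlap, against 25.6% of all genes tested. Its fold change without the block was 0.17 (SE 0.11, adjusted p = 0.452, DESeq2). Yy1 had a fold change of 0.09 and Zfp143 of -0.02. Ctcfl, the germline paralog of Ctcf, averaged 96.15 ± 45.0 normalized counts in WT against 70.34 ± 18.2 in KO (-0.42, SE 0.33, adjusted p = 0.609, DESeq2). Its libraries gave 74.92, 65.67 and 147.9 in WT and 72.8, 51.01 and 87.21 in KO, so WT replicate 3 raised the WT mean. Per kb of exon the Ctcfl WT level of 29.9 compares with 1212 for Ctcf.

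Of 10 cohesin subunits, loaders and release factors, 1 was called higher and none lower, where 2.7% of all genes tested were called higher. The same gene was called with edgeR and limma-voom. With these, Stag2, on the X chromosome, had an unadjusted p under 0.05, where the share of all genes was not computed (fold change 0.18, adjusted p = 0.357, DESeq2). Genotypes did not overlap for Stag2 and the called gene, 2 of the 10, against 25.6% of all genes tested. Smc1a, a core subunit of the cohesin ring, rose from 5581, 5383 and 6451 to 8132, 7722 and 8523 normalized counts (0.49, SE 0.10, adjusted p = 9.6e-05, DESeq2). Smc1a lies on the X chromosome too, where the median over 409 other genes was 0.18, and of 15 genes starting within 1 Mb of it 8 were called, none of them lower, with a median of 0.40. Over the X chromosome, 28.4% of these 409 genes were called. The part of its neighbourhood in the Smc1a value was not tested. Rad21, the kleisin subunit that closes the ring, had a fold change of 0.03, and the loaders Nipbl and Mau2 had 0.08 and 0.03.

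**Figure D4:**
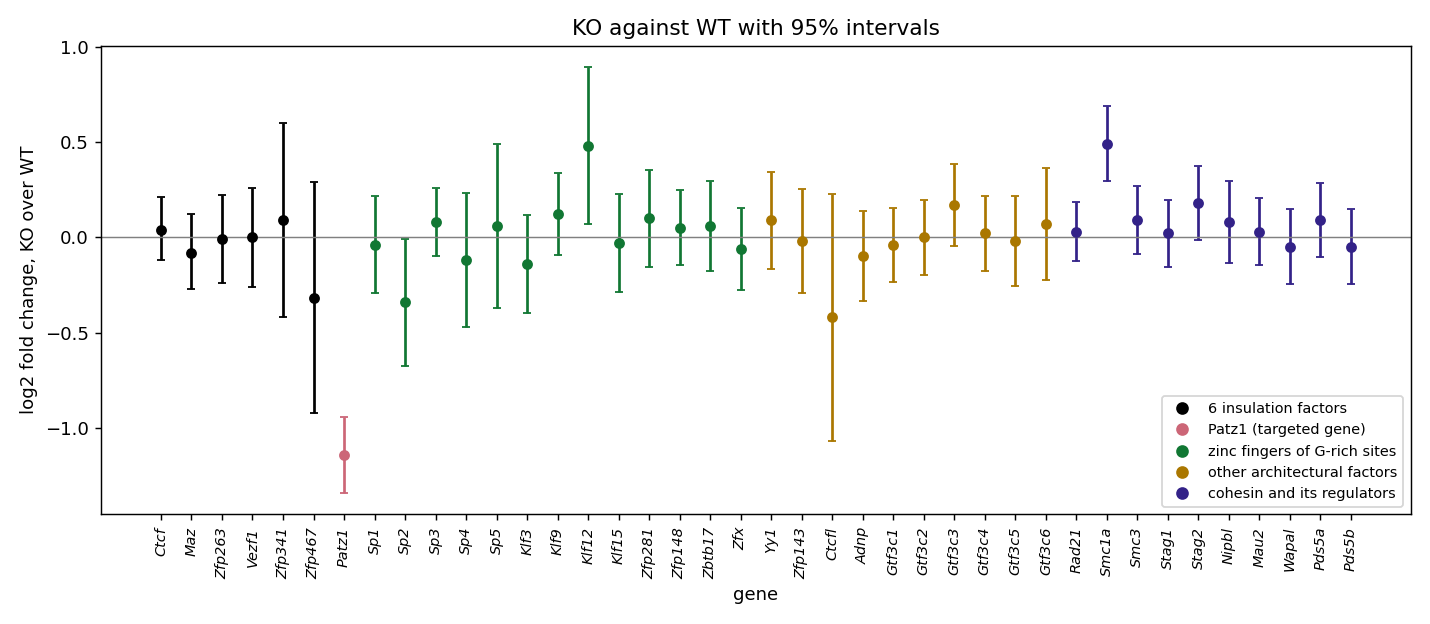
Log2 fold changes, KO over WT, with 95% intervals for the 6 insulation factors, Patz1 and the genes of the 3 lists with a mean of at least 50 normalized counts in each genotype. The intervals of the 6 factors include 0, and Patz1 and Smc1a are the genes shown that passed the threshold.

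Some exons are shared with other annotated genes. Ctcf overlaps Agrp on the opposite strand over 114 bp, or 2.346% of its exon length, and Agrp had 151 counts over all libraries together. Ctcf also overlaps the long noncoding RNA Gm5914, over 370 bp, and Zfp341 overlaps 4930519P11Rik (106 bp) and Gm14198 (282 bp), all on the opposite strand and not among the symbols counted. Patz1 overlaps Gm12592 over 605 bp, or 10.247% of its exon length, also on the opposite strand and not among the symbols counted. On its own strand Patz1 overlaps Gm11944 over 88 bp, and Gm11944 had 159 counts over all libraries. Whether counting used strand is not given in the sources used here. Without strand, reads of the genes on the opposite strand could be counted with Ctcf, Zfp341 or Patz1. Maz, Vezf1, Zfp263 and Zfp467 overlap no other annotated exon.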

How the data were processed

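RNA from 3 WT and 3 Patz1 KO libraries was analysed, grouped by sample title. The authors deposited raw read counts per gene symbol, 1 file per library, with no normalization. The submitters' processing notes name mm10, TopHat2 2.1.1, Bowtie2 2.3.1.0, featureCounts 1.6.2 and DESeq2. The annotation counted, strand setting and handling of duplicates are not given in the sources used here. Without molecular identifiers, a floor of 3 counts covers counting error only, and it corresponds to 1.69 to 8.21 normalized counts. The intervals of fold changes also include the spread between libraries.

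The Wald test of DESeq2 and its threshold of 0.05 follow the methods of the study. The version (DESeq2 1.42.0 in R 4.3.3) and the other settings were chosen here: a fit to all genes with genotype as the only term, median-of-ratios size factors, default independent filtering (0.1), no shrinkage and Benjamini-Hochberg adjustment (two-sided). Values are mean ± SD, and intervals are 95% Wald intervals. Lengths and positions came from GENCODE M21 on GRCm38. Of the symbols, 21785 matched directly, 1259 through an older symbol and 376 not at all. Alternatives were edgeR 4.0.16 (quasi-likelihood), limma-voom (limma 3.58.1), TMM size factors, a filter of 10 counts in 3 libraries, no independent filtering, a replicate block, chromosome 11 centred, and libraries left out. The code was tested on simulated data with 200 changed genes. DESeq2 recovered 87% of log2 changes of 1 and 54% of those of 0.5, and 14.5% of its calls were false. Of the changes of 0.5, edgeR recovered 35% and limma-voom 37%.

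At each replicate number, deviations of WT and KO from their genotype means correlated, at 0.469, 0.619 and 0.684 over 11524 genes. A gene's 3 deviations in a genotype sum to 0, so a difference shared by the replicate 3 libraries enters all 3 values. No 2 libraries agreed within sampling noise: over the 15 pairs, the lowest chi-square divided by its degrees of freedom was 9.50. That pair was WT and KO replicate 3. WT replicate 2 was nearest KO replicate 2 (29.4). WT replicate 1 was nearer WT replicate 2 (46.3) than KO replicate 1 (55.5), and KO replicates 1 and 2 were nearest each other (20.0). The members and lists were chosen with earlier results of these data known. Genes named are the 6 factors, Patz1, listed genes under the threshold, genes overlapping a factor or Patz1, and markers. For each factor, the 2 genes most correlated and the 1 most anticorrelated are also named. Neighbours of Vezf1 and Maz, Klf12, Sp2, Stag2, Gtf3c3, Ctcfl and the other listed genes were named after their values were seen.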

Additional observations from a re-analysis of the deposited data

How the results depend on the processing

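None of the 6 factors was called under any of the 15 alternatives, whose adjusted p ranged from 0.114 to 1.00 for Vezf1, 0.335 to 0.974 for Zfp467, 0.579 to 0.993 for Maz, 0.742 to 0.995 for Ctcf, 0.845 to 0.999 for Zfp341 and 0.875 to 0.996 for Zfp263. Patz1 (6.48e-41 to 0.000126) and Smc1a (1.01e-16 to 0.0204) were called under all 15. The replicate block changed no call of these 8 genes, though it raised the number of genes called from 1146 to 2131, and from 917 to 1743 with chromosome 11 centred. Leaving out 1 library gave 583 to 1341 calls, and the lowest numbers followed the loss of a deep library: replicate 1 (583) or 2 (590) of the KO, or replicate 1 (605) or 2 (664) of WT. The direction of the factors near 0 was not fixed. Vezf1 was -0.00178 with the count filter and -0.00263 with edgeR, and with 1 library left out it ranged from -0.067 to 0.0655, Zfp263 from -0.0867 to 0.0515 and Zfp341 from -0.00478 to 0.288. Over the same omissions Zfp467 ranged from -0.436 to -0.169, Maz from -0.118 to -0.0222 and Ctcf from 0.0216 to 0.0625, with the values nearest 0 for Zfp467 and Maz without KO replicate 2. With the longest coding transcript in place of all exons, WT levels per kb became 1558 for Ctcf, 1055 for Maz, 418 for Zfp263 and 15.9 for Zfp467, in the same order. Depth limits Zfp341 and Zfp467 most, at 22 to 29 raw counts in the replicate 3 libraries.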
